A study of Mus musculus with 11 samples.

Results

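The genes described here are the chemokines and their receptors, taken as every row of the count table whose symbol is Ccl, Cxcl, Cx3cl, Xcl, Ccr, Cxcr, Cx3cr or Ackr followed by a number. This rule found 49 genes, 32 chemokines and 17 receptors, among the 18305 genes of the table. The table uses older symbols, so that the atypical receptor Ackr3 is included under the name Cxcr7, whereas Ackr4 is listed as Ccrl1 and falls outside the rule. Chemokines are small proteins that guide migrating cells along concentration gradients, and most of them act on leukocytes through G protein-coupled receptors. They are grouped by the spacing of their first cysteines into CC, CXC, CX3C and XC families, and atypical receptors bind them without classical signaling. In mucosal tissues epithelial cells release some of them constitutively, while fibroblasts, endothelial cells and macrophages release others, so organoids, which are mainly epithelium, can be set beside whole tissues and tumors to ask which chemokine transcripts epithelium makes.

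The 27 libraries were prepared by CEL-Seq2, a bulk method that counts the tagged 3′ end of each transcript. Tissue libraries came from wild-type oviduct (3 libraries) and ovarian surface epithelium (OSE, 3 libraries) of C57BL/6 mice, and wild-type organoids were grown from oviduct (3 libraries) and OSE (2 libraries, a further line having been removed by the authors) in medium with WNT and estrogen. The other cultures derive from oviduct of ROSA26 Cas9-P2A-EGFP mice, in which Cas9 and EGFP are expressed ubiquitously, and are organoids without sgRNA (Cas9-GFP organoids, 3 libraries), TBP clones (3 libraries) and organoids grown from TBP tumors (4 libraries). Each TBP clone grew from cells transfected with sgRNAs, Trp53 and Brca1 among the targets, and selected with Nutlin-3a, so each clone library comes from a clonal line, and no Brca1 mutant line of the study was homozygous. The 6 TBP tumor libraries came from oviduct-TBP clones transplanted into adult female NSG mice (NOD.Cg-Prkdc scid Il2rg), a host that lacks mature T, B and NK cells but keeps myeloid cells. Tumor-derived organoids were kept in Nutlin-3a and are either mixed cultures of cystic epithelium and fibroblast-like cells (T1-mes and T3-mes) or epithelial cultures (T2-epi and T4-epi). RNA of tissues and tumors was extracted with Trizol and that of organoids with a column kit, so the extraction and the contrast of tissue with organoid cannot be told apart. The study describes its tissues, organoid lines and tumors as independent samples. How many independent clones the 3 TBP libraries represent is not stated, nor whether T3-mes and T4-epi share a mouse, so in those groups p-values measure the spread between libraries, which may be in part technical. Levels are given as CPM, that is counts scaled to a common library size by TMM. Since 3′ counts do not scale with transcript length, levels of different genes are set side by side. Other differences between genes remain, and copies of a molecule were not collapsed, so rankings between genes are approximate.

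Total counts ran from 82239 to 4531767, both among the TBP clones (clones 1 and 3), and a count of 0 allows up to 34.1 CPM in TBP clone 1 but at most 5.21 CPM in every other library (3 counts, counting error only). Trp53 was at 0, 0.535 and 4.91 CPM in TBP clones 1, 2 and 3, at 4.27 to 8.96 CPM in tumor-derived organoids, at 34.8 to 61.1 CPM in the Cas9-GFP organoids and at 18.2 to 56.7 CPM in tumors, while Brca1 was too low in Cas9-GFP organoids (0 to 3.77 CPM) to check the labels. The tissue labelled OSE held 9336 to 11372 CPM of granulosa and steroidogenic markers (6 genes) and 443 to 544 CPM of epithelial markers (8 genes), whereas oviduct tissue held 65.0 to 282 and 1768 to 2219 CPM of the same lists. OSE organoids 2 stood apart from OSE organoids 1, with 3274 against 18.9 CPM of Ovgp1, the main secretory product of oviduct epithelium. Epithelial markers summed to 372 CPM in T3-mes against 3675 in T1-mes, and to 198 to 479 CPM in tumors 2, 4, 5 and 6 against 2558 and 3297 in tumors 1 and 3. The pan-leukocyte markers (Ptprc, Coro1a and Laptm5) summed to at most 1.35 CPM in every culture, to 9.39 to 87.7 CPM in tissues and to 215 to 621 CPM in tumors. In bulk RNA, fewer cells of a type and less RNA per cell cannot be told apart.

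A gene was counted as detected in a group when at least 2 of its libraries held more than 3 counts. By that measure 35 of the 49 genes were detected in some group. Of these, 18 were detected in epithelial cultures, namely the oviductal, OSE, Cas9-GFP, TBP clone and epi cultures, and 16 of the 18 were chemokines. The 18 were Cxcl1, Cxcl2, Cxcl3, Cxcl5, Cxcl10, Cxcl13, Cxcl14, Cxcl16, Cxcl17, Cx3cl1, Ccl2, Ccl6, Ccl9, Ccl20, Ccl25, Ccl28 and the receptors Cxcr2 and Cxcr7. A further 15 were detected in tissues or tumors and in no culture, 9 chemokines and 6 receptors. They included the chemokines Ccl3, Ccl4, Ccl5, Ccl8, Ccl11, Ccl12, Ccl17, Ccl24 and Cxcl9 and the receptors Ccr1, Ccr2, Cx3cr1, Cxcr3 and Cxcr4. Ccl7 and Cxcl12 were detected in mes organoids, tumors or tissues and in no epithelial culture. No gene was detected in an epithelial culture and in neither tissues nor tumors. Group totals were 19 genes in oviduct tissue, 15 in OSE tissue, 14 in oviductal organoids, 5 in OSE organoids, 6 in Cas9-GFP organoids, 9 in TBP clones, 12 in epi organoids, 15 in mes organoids and 34 in TBP tumors, although the groups differ in depth and in number of libraries. Leaving out any cultured library gave 16 to 18 genes in epithelial cultures and 15 to 17 in no culture.

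**Figure D1:**
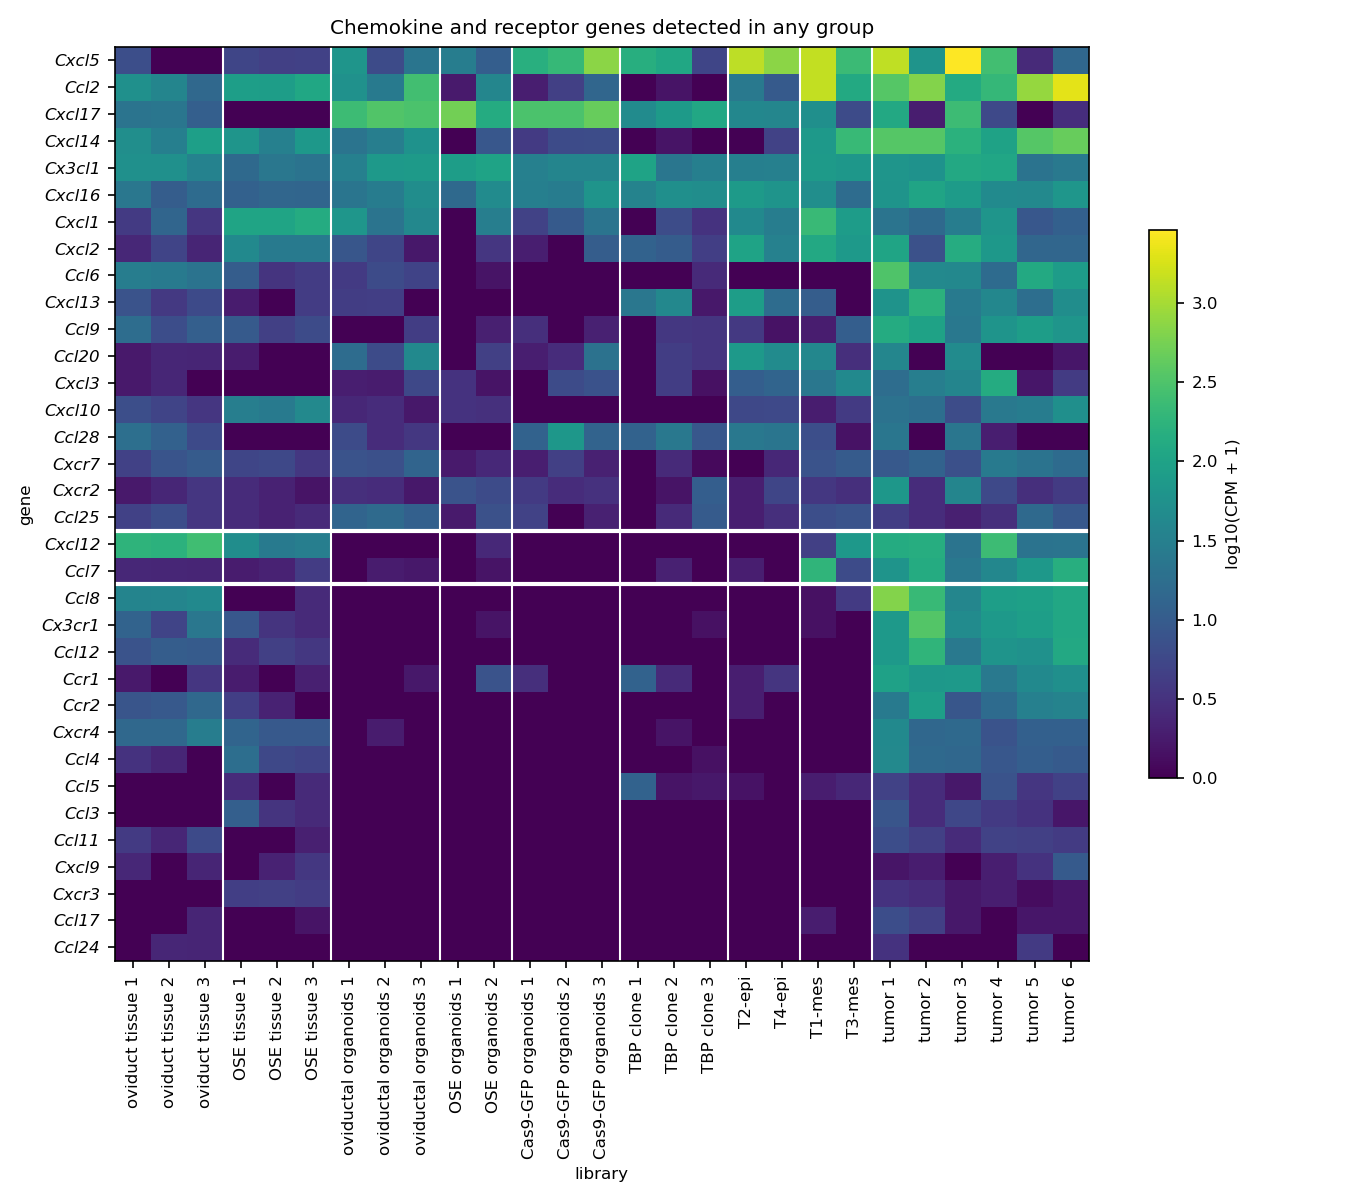
Level of 34 detected genes (rows) in each of the 27 libraries (columns), as log10(CPM + 1). White horizontal lines separate the 18 genes detected in epithelial cultures, Ccl7 and Cxcl12, and 14 of the genes detected in no culture. In the last block most culture entries are 0 (Ccr1 in OSE organoids 2 and TBP clone 1 and Ccl5 in TBP clone 1 are visible exceptions), and most of its genes are brightest in the tumors.

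The remaining 14 genes were detected in no group: Ccl1, Ccl19, Ccl22, Cxcl11 and Xcl1 among the chemokines, and Ccr3, Ccr4, Ccr6, Ccr7, Ccr9, Ccr10, Cxcr1, Cxcr5 and Cxcr6 among the receptors. The highest count of any of them in a library was 9, for Ccr7 and Cxcr6 in tumor 1 (4.96 CPM each). Several of these receptors pair with a chemokine that the epithelial cultures did make, such as Cxcr6 with Cxcl16, Ccr6 with Ccl20, Ccr9 with Ccl25 and Ccr10 with Ccl28. Across the 13 libraries of epithelial cultures these receptors had 1, 0, 2 and 3 counts in all, against 979, 397, 126 and 253 counts of their ligands.

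Many of the 49 genes lie in clusters (GRCm38, GENCODE vM21). Chromosome 11 between 82035571 and 83664683 holds 11 of the 49 genes, all CC chemokines. Of these, 10 were detected in tumors, 7 in tissues and 3 (Ccl2, Ccl6 and Ccl9) in epithelial cultures. Chromosome 5 between 90759360 and 92365485 holds 7 of the 49 genes, all CXC chemokines, of which 6 were detected in tumors, 4 in tissues and 5 in epithelial cultures. The latter 5 are Cxcl5, Cxcl3, Cxcl1 and Cxcl2, which carry the ELR motif and attract neutrophils through Cxcr2, and Cxcl10, an interferon-induced ligand of Cxcr3.

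Cxcl1, Cxcl2 and Cxcl10 were all lower in oviduct tissue than in OSE tissue (a comparison described further on), and their promoters are shown with that of Cxcl3 from the same cluster; the shared letters are the reason they are printed. Of the 49 genes, 35 matched a promoter in the RefSeq table (GRCm38.p6), each window covering 250 bases before the start and 50 after it. Both strands were searched for the NF-kappaB consensus and for the interferon-stimulated response element, searched as 2 copies of GAAA separated by 2 bases. The former was found in 10 of the 35 genes (28.6%) and in 8.46% of all 32851 windows, and the latter in 3 of the 35 (8.57%) and in 3.44% of all windows. A gene counted when any of its windows matched, whereas the background is a share of windows, so the units differ. Cxcl5 and Cxcl17 have no entry. The stretches shown run from 120 to 41 bases before the start for the first 3 genes and from 220 to 81 bases before it for Cxcl10, 5′ to 3′ on the strand of the gene, with the matches in capitals. They lie at chr5:90891125-90891204 (plus strand), chr5:90903779-90903858 (plus strand), chr5:90785981-90786060 (plus strand) and chr5:92348970-92349109 (minus strand), in the order printed.
Cxcl1: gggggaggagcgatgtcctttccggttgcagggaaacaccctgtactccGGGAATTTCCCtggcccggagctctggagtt
Cxcl2: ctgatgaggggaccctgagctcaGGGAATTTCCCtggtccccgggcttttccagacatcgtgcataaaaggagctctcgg
Cxcl3: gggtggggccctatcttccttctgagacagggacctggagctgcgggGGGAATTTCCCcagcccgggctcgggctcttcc
Cxcl10: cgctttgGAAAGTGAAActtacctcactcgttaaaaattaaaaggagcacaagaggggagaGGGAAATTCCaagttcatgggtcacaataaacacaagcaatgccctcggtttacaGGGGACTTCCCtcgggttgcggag
Cxcl1, Cxcl2 and Cxcl3 each hold the same 11 letters, in which a match on one strand overlaps a match on the other, starting 71, 97 and 73 bases before the start. Cxcl10 holds NF-kappaB matches starting 159, 104 and 103 bases before the start, the last 2 overlapping, and the interferon-type element (the first capitals) starting 213 bases before it. A match describes the letters of the window and not a bound site.

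Cxcl17, a mucosal chemokine of secretory epithelia (chromosome 7, 25400053 to 25412886), had the highest mean of the 49 genes in oviductal and in OSE organoids. Its level was 235, 333 and 303 CPM in oviductal organoids, 530 and 136 CPM in OSE organoids and 303, 302 and 456 CPM in Cas9-GFP organoids. It was lower in every TBP clone, at 45.4, 74.9 and 117 CPM, and the epi organoids T2-epi and T4-epi had 38.9 and 38.4 CPM. Oviduct tissue had 20.5, 21.9 and 10.03 CPM, whereas OSE tissue had 0 counts in each library. No wild-type organoid library overlapped with any tissue library.

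Cxcl5, an epithelial neutrophil attractant, ranged widely among cultures. It was at 62.3, 5.14 and 21.2 CPM in oviductal organoids and 28.7 and 9.72 CPM in OSE organoids. In Cas9-GFP organoids it reached 150, 205 and 735 CPM, in TBP clones 148, 114 and 4.24 CPM, and in epi organoids 1306 and 730 CPM. Tissues had at most 5.84 CPM. The epi organoids lay above every TBP clone, and the wild-type oviductal organoids lay below every Cas9-GFP library, pairs of groups that were not tested.

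The other 2 chemokines detected in every group of epithelial cultures are made as membrane-anchored proteins. Cx3cl1 (fractalkine, the ligand of Cx3cr1) was at 60.7 ± 25.6 CPM (SD, n = 3) in oviductal organoids, 92.1 ± 12.9 (n = 2) in OSE organoids, 34.7 ± 3.09 (n = 3) in Cas9-GFP organoids, 51.5 ± 44.1 (n = 3) in TBP clones and 30.7 ± 0.864 (n = 2) in epi organoids. Cxcl16 was at 32.4 ± 14.3, 29.9 ± 22.0, 39.7 ± 18.6, 45.2 ± 9.70 and 68.8 ± 11.4 CPM in the same groups. Cxcl16 of both epi organoid libraries lay above every oviductal, OSE and TBP clone library, while Cas9-GFP organoids 3 (61.1 CPM) lay just above T4-epi (60.7 CPM). Cx3cr1 had 3 counts in all over the 13 epithelial culture libraries, against 981 counts of its ligand.

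Among homing chemokines, Ccl20 (the ligand of Ccr6) was at 15.6, 5.14 and 42.5 CPM in oviductal organoids and reached 70.4 CPM in T2-epi and 46.5 CPM in T4-epi, but was at 0 to 3.21 CPM in TBP clones. Ccl28, a mucosal chemokine, was at 11.3, 67.8 and 11.8 CPM in Cas9-GFP organoids and 11.4 (1 count), 23.6 and 7.59 CPM in TBP clones. It had 0 counts in both OSE organoid libraries and all OSE tissue libraries. Ccl25, a ligand of Ccr9, was at 12.3, 14.6 and 10.6 CPM in oviductal organoids and at or below 8.93 CPM in all other epithelial cultures. Cxcl13, a B cell attractant, was at 84.7 CPM in T2-epi, 15.7 CPM in T4-epi and 40.7 CPM in TBP clone 2, where clone 3 had 0.670 CPM. Ccl6 and Ccl9, chemokines of myeloid cells, were near the detection limit in epithelial cultures, where their highest counts in a library were 7 and 11.

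The remaining genes of the 18 differed between kinds of culture. Cxcl1 was at 64.6, 20.6 and 40.5 CPM in oviductal organoids, at 42.6 and 28.0 CPM in the epi organoids and at most 5.35 CPM in TBP clones. Cxcl2 reached 102 CPM in T2-epi and 31.8 CPM in T4-epi and was at most 11.4 CPM (TBP clone 1, 1 count) in every other epithelial culture. Cxcl3 was at 9.72 and 11.9 CPM in the epi organoids. Cxcl1, Cxcl2 and Cxcl3 thus lay higher in both epi organoid libraries than in TBP clones 2 and 3. TBP clone 1, with a floor of 34.1 CPM, had 0 counts of Cxcl1 and Cxcl3 and 1 of Cxcl2. Whether it lay below both epi libraries is therefore unknown for all 3 genes. This pair of groups was not tested. Ccl2 ran from 25.7 to 255 CPM and Cxcl14, a chemokine of epithelia and fibroblasts, from 20.8 to 56.4 CPM in oviductal organoids, and in TBP clones each had 1 count in all. Cxcl10 was at most 4.75 CPM in epithelial cultures. The receptors were low, Cxcr7 being at 6.61, 6.00 and 11.95 CPM in oviductal organoids and Cxcr2 at 6.79 and 5.11 CPM in OSE organoids and 9.82 CPM in TBP clone 3.

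**Figure D2:**
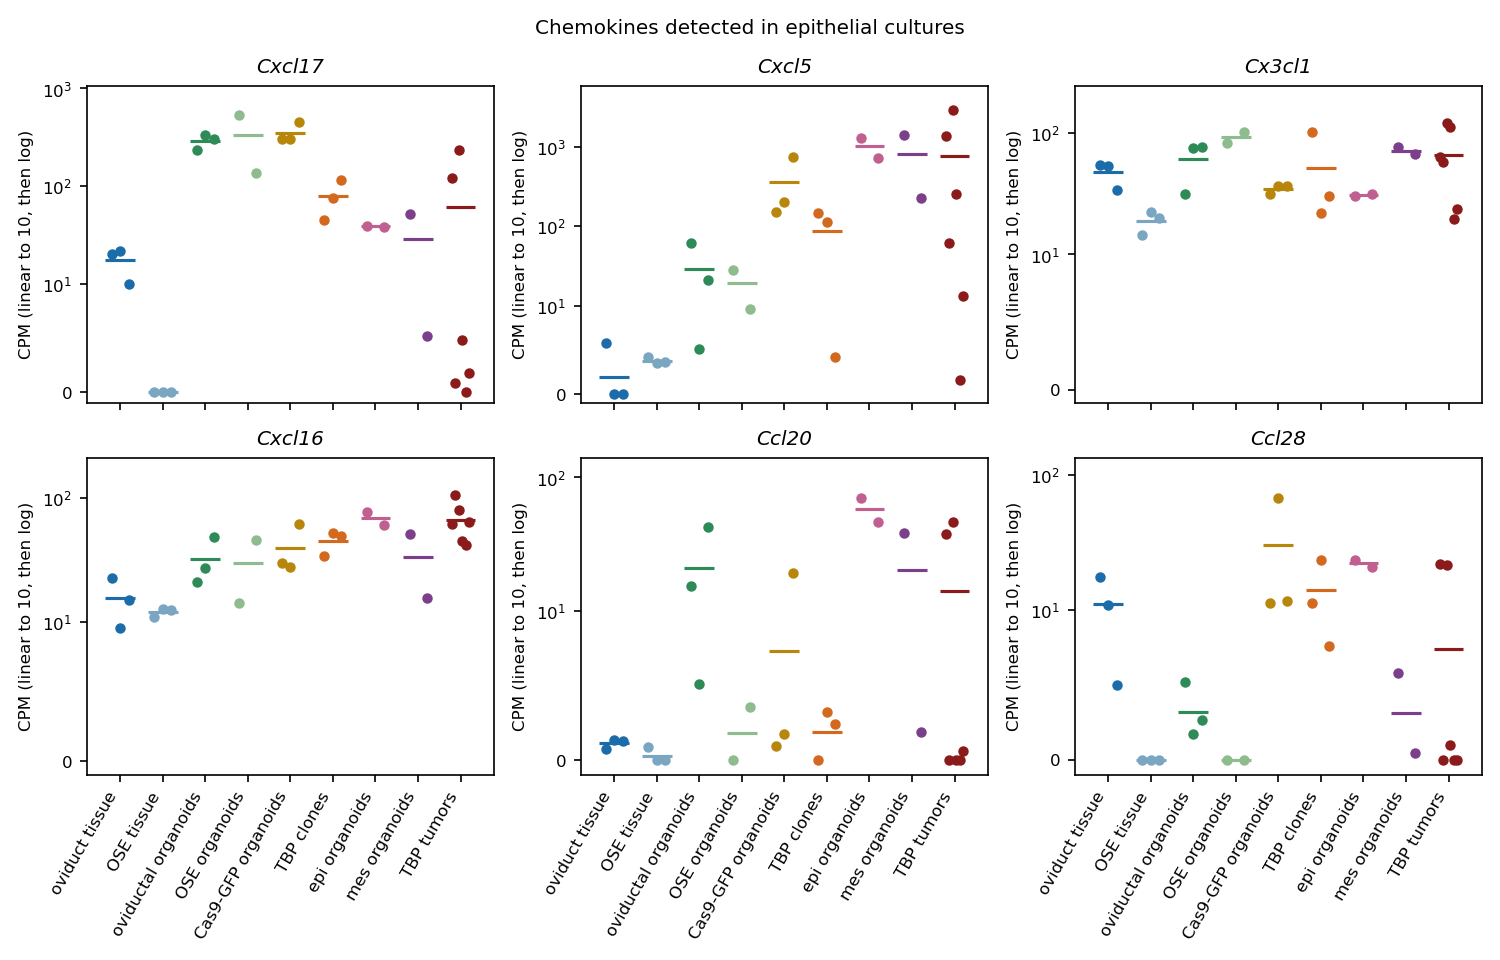
CPM of 6 chemokines of epithelial cultures (vertical axis, linear to 10 and logarithmic above), with points for libraries and a bar for the mean of each of the 9 groups. Cxcl17 is high in wild-type and Cas9-GFP organoids, and Cxcl17, Ccl20 and Ccl28 are high in the same 2 of the 6 tumors.

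Oviductal organoids were compared with oviduct tissue to ask how culture of the epithelium alone differs from the whole organ. Of the 49 genes, 11 passed the filter on low counts, 3 were higher in organoids and 4 were lower at an edgeR adjusted p under 0.05. Among all 9477 genes tested, 18.7% were higher and 24.2% lower. The median log2 fold change was 0.35 for these 11 genes and -0.02 for all genes tested, and genes that passed the filter through the group in which they are high had to differ. Cxcl17 was higher in organoids by 4.04 on the log2 scale (SE 0.27, edgeR adjusted p = 5.16e-07). Cxcl1 rose from 2.92, 12.3 and 2.51 CPM in tissue to 64.6, 20.6 and 40.5 CPM in organoids (log2 fold change 2.99, SE 0.57, edgeR adjusted p = 0.00113). Ccl25 was also higher (log2 fold change 1.69, SE 0.45, edgeR adjusted p = 0.00893), but not under DESeq2, in the fit of all 27 libraries or without oviduct tissue 1 (adjusted p = 0.0745 by DESeq2, and edgeR adjusted p = 0.164 and 0.0595). The 3 organoid libraries lay above the 3 tissue libraries for each of these genes.

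The 4 lower genes were Cxcl12, Ccl8, Cxcr4 and Ccl6. Cxcl12, the stromal ligand of Cxcr4 (chromosome 6, 117168535 to 117181367), was at 177, 169 and 253 CPM in tissue and 0 counts in every organoid library, at least 313-fold lower (3 counts over the group). Ccl8, a monocyte attractant, was at 35.8, 37.0 and 42.6 CPM in tissue and 0 counts in organoids, at least 60.7-fold lower. The edgeR adjusted p was 3.21e-07 for Cxcl12 and 6.46e-06 for Ccl8. Cxcr4 had 52 counts in tissue and 1 in organoids, a ratio of 86.0 (95% counting interval 14.8 to 3463), and Ccl6 fell by 2.65 on the log2 scale (SE 0.39, edgeR adjusted p = 1.87e-04). Fibroblast markers (7 genes) summed to 3975 to 7208 CPM in oviduct tissue and to at most 5.14 CPM in oviductal organoids, and macrophage markers (10 genes) to 345 to 496 against 4.25 to 5.14 CPM. Their part in these differences was not tested. Ccl2, Cxcl16, Cx3cl1 and Cxcl14 were tested and did not pass, with log2 fold changes of 1.65 (SE 0.69), 0.97 (SE 0.40), 0.35 (SE 0.34) and -0.68 (SE 0.42). The number called rose from 7 to 15, 14, 12, 12 and 11 without oviductal organoids 1, 2 or 3 or oviduct tissue 2 or 3, where 15 to 19 genes passed the filter.

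OSE organoids were compared with OSE tissue in the same way, with 2 organoid libraries. Of 11 genes tested, 3 were higher in organoids, against 14.5% of all 10232 genes tested, and 5 were lower, against 18.6%. The median log2 fold change was -2.84 for these 11 genes and -0.06 for all genes tested. As before, genes that passed the filter through 1 group had to differ, and 2 of the 11 had 0 counts in 1 group. Cxcl17, at 0 counts in every OSE tissue library and 968 counts in the organoids, was at least 388-fold higher in organoids (edgeR adjusted p = 0.00290). Cx3cl1 was at 83.0 and 101 CPM in organoids against 14.5, 22.3 and 19.9 CPM in tissue (log2 fold change 2.31, SE 0.29, edgeR adjusted p = 0.00191). Cxcl5 was higher by 2.30 (SE 0.58, edgeR adjusted p = 0.0227) and lost its call without OSE organoids 1 or any OSE tissue library (edgeR adjusted p up to 0.428 over its alternatives).

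The 5 lower genes were Cxcl2, Cxcl10, Cxcl12, Cxcl14 and Cxcr4. Cxcl10 was at 2.26 and 2.05 CPM in organoids and 29.0, 24.6 and 42.3 CPM in tissue (log2 fold change -3.84, SE 0.47, edgeR adjusted p = 0.00185). Cxcl2 was at 0 and 2.56 CPM against 43.4, 24.6 and 26.1 CPM (log2 fold change -4.31, SE 0.78, edgeR adjusted p = 0.00675). Cxcl12 had 3 counts in organoids and 134 in tissue, a ratio of 37.2 (95% counting interval 12.5 to 183). Cxcr4 was at least 10.3-fold lower. Cxcl14 fell by 3.64 on the log2 scale (SE 0.87, edgeR adjusted p = 0.0187), but the call was lost without any of the 3 OSE tissue libraries (edgeR adjusted p up to 0.111). OSE organoids 1 had 0 counts of Cxcl1, Cxcl2, Cxcl14 and Ccl20 and 0.755 CPM of Ccl2, whereas OSE organoids 2 had 29.7, 2.56, 7.67, 3.58 and 37.8 CPM. Without OSE organoids 2, which had 3274 CPM of Ovgp1, the number called was 13 (3 higher, 10 lower) in place of 8. Fibroblast markers summed to 1695 to 3230 CPM in OSE tissue and to 0.755 and 39.4 CPM in OSE organoids, and granulosa and steroidogenic markers to 9336 to 11372 against 8.30 and 22.5 CPM. Their part was not tested.

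The difference of organoid from tissue was itself compared between oviduct and OSE by an interaction term, in which 5 of 21 genes tested passed, against 11.7% of all 11458 genes tested. The change from tissue to organoid was more positive in oviduct for Cxcl1 (by 5.89 on the log2 scale, SE 1.22, edgeR adjusted p = 0.00930) and Cxcl2 (by 5.44, SE 1.23, edgeR adjusted p = 0.0139). It was more negative in oviduct for Cxcl17 (-7.70, SE 1.43, edgeR adjusted p = 0.00740), Cxcl12 (-5.90, SE 1.69, edgeR adjusted p = 0.0485) and Cx3cl1 (-1.85, SE 0.51, edgeR adjusted p = 0.0342). Cxcl12 was at or near 0 in the organoids of both origins, and Cxcl17 was at 0 in OSE tissue, so the values of these 2 depend on the prior count of the fit. The call of Cx3cl1 was lost without oviduct tissue 1 or 2 or any OSE tissue library (edgeR adjusted p up to 0.0867), that of Cxcl12 without any library other than OSE tissue 1 and OSE organoids 1 (edgeR adjusted p up to 0.9998), and that of Cxcl2 without oviductal organoids 1 (edgeR adjusted p = 0.0623). The number called was 3 without oviduct tissue 1 or 2, OSE tissue 2 or 3, or oviductal organoids 1.

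Between the whole tissues, the neutrophil attractants Cxcl1 and Cxcl2 were higher in the tissue labelled OSE, and Cxcl12 and Ccl8 were higher in oviduct tissue. Of 11 genes tested, 5 were higher in oviduct tissue and 4 in OSE tissue, against 26.9% and 24.3% of all 8787 genes tested. The median log2 fold change was 0.45 for these 11 genes and 0.00 for all genes tested. Cxcl1 was at 106, 103 and 135 CPM in OSE tissue against at most 12.3 CPM in oviduct tissue (log2 fold change -4.44, SE 0.35, edgeR adjusted p = 8.06e-08). Cxcl2 (log2 fold change -3.85, SE 0.47), Cxcl10 (-2.88, SE 0.38) and the monocyte attractant Ccl2 (-1.41, SE 0.30) were also lower in oviduct, with edgeR adjusted p = 7.89e-06, 1.70e-05 and 0.00111. In these 4 genes the 3 OSE libraries lay above the 3 oviduct libraries. Granulosa and steroidogenic markers summed to 9336 to 11372 CPM in OSE tissue and 65.0 to 282 CPM in oviduct tissue. Epithelial markers summed to 443 to 544 against 1768 to 2219 CPM. Neutrophil markers (5 genes) summed to 5.87 to 10.2 CPM in OSE tissue and 0 to 2.92 CPM in oviduct tissue. The part of these cell types was not tested, so the levels in OSE tissue cannot be assigned to its surface epithelium.

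Higher in oviduct tissue were Cxcl12 (log2 fold change 2.52, SE 0.24, edgeR adjusted p = 5.60e-07), Ccl6 (2.32, SE 0.41, edgeR adjusted p = 2.28e-04) and Cx3cl1 (1.33, SE 0.27, edgeR adjusted p = 6.76e-04). Ccl8 had 110 counts in oviduct tissue and 3 in OSE tissue, a ratio of 49.9 (95% counting interval 16.6 to 246). In the fit of all 27 libraries the calls of Cxcl12, Ccl6, Cx3cl1 and Ccl2 were lost (edgeR adjusted p = 0.0766, 0.0780, 0.0962 and 0.347). Cxcr4 was higher by 0.93 (SE 0.37, edgeR adjusted p = 0.0457), a call lost under DESeq2, in the fit of all 27 libraries and without oviduct tissue 3 or any OSE tissue library (edgeR adjusted p up to 0.335). Cxcl14 did not pass, at 56.9 ± 30.6 and 54.8 ± 20.2 CPM (SD, n = 3 each), with a log2 fold change of -0.01 (SE 0.32). Macrophage markers summed to 345 to 496 CPM in oviduct tissue and 86.8 to 185 CPM in OSE tissue, fibroblast markers to 3975 to 7208 against 1695 to 3230 CPM, and smooth muscle markers to 5573 to 6802 against 509 to 735 CPM. Their part was not tested.

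Between oviductal and OSE organoids none of 10 genes tested passed, against 0.0864% of all 9257 genes higher in oviductal organoids and 0% lower by edgeR. An unadjusted p under 0.05 was reached by 3 of the 10, namely Ccl20 (log2 fold change 3.36, SE 1.21), Cxcl14 (3.06, SE 0.97) and Cxcr7 (2.71, SE 0.80), against 11.5% of all genes tested. DESeq2 called 0 of the 49 genes as well. Without OSE organoids 2, the library with oviduct secretory transcripts, 5 genes were called, all higher in oviductal organoids: Cxcl1, Cxcl14, Ccl2, Ccl20 and Ccl25. Cxcl17 differed by -0.18 (SE 0.53).

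TBP clones were compared with Cas9-GFP organoids, from which they differ by the targeted mutations and also by transfection, Nutlin-3a selection and clonal growth. These cannot be told apart. Of 5 genes that passed the filter, 0 were higher and 1 was lower in the clones, against 0.389% and 0.428% of all 7708 genes tested. The median log2 fold change was -0.95 for these 5 genes and -0.01 for all genes tested. The lower gene was Cxcl17 (79.0 ± 35.8 against 354 ± 88.6 CPM, SD, n = 3 each), with a log2 fold change of -2.02 (SE 0.37, edgeR adjusted p = 0.0283). All 3 clone libraries, which are not all independent clones, lay below all 3 Cas9-GFP libraries. However, the call was lost without any of the Cas9-GFP libraries and in a fit of all 27 libraries (edgeR adjusted p up to 0.588). Without TBP clone 3, 2 genes were called. Cxcl5 had a log2 fold change of -2.28 (SE 0.96) and did not pass (edgeR adjusted p = 0.440). TBP clone 1 (148 CPM, 13 counts) and Cas9-GFP organoids 1 (150 CPM) were too close to tell apart by counts. Cx3cl1, Cxcl16 and Ccl28 had log2 fold changes of 0.05 (SE 0.53), 0.28 (SE 0.40) and -0.95 (SE 0.74).

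TBP tumors held transcripts of many more chemokine genes than the clones that were transplanted. Of 27 genes tested, 17 were higher in tumors, against 20.1% of all 10473 genes, and 0 were lower, against 11.7%. An unadjusted p under 0.05 was reached by 19 of the 27, against 43.4% of all genes tested. The median log2 fold change was 5.45 for these 27 genes, also with genes at 0 set to their bound, and 0.16 for all genes tested. Genes that passed the filter through the tumors alone had to differ, and 6 of the 27 had 0 counts in 1 group. The changes below are given as fitted and exceed the shift of 0.16. Cxcl1 had a log2 fold change of 2.72 (SE 0.84, edgeR adjusted p = 0.0302). Its call was lost without any of the 3 clone libraries (edgeR adjusted p up to 0.151). The other calls held under every alternative run.

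Monocyte attractants of the chromosome 11 cluster were among the 17. Ccl2 was at 128 to 2076 CPM in tumors (median 505, n = 6) with 1 count in all clones, a ratio of 4350 (95% counting interval 781 to 171836). Ccl8 was at 37.7 to 662 CPM in tumors and Ccl12 at 24.3 to 186 CPM, both with 0 counts in clones, at least 391-fold and at least 156-fold higher. Ccl7 had 836 counts in tumors and 2 in clones, and Ccl4, a chemokine of activated macrophages, had 185 and 2. Ccl6 and Ccl9 were higher by 6.58 (SE 1.34) and 4.88 (SE 0.67) on the log2 scale, with edgeR adjusted p = 0.00401 and 5.06e-04. For each of these genes every tumor lay above TBP clones 2 and 3, and TBP clone 1 held 0 counts, which allows 34.1 CPM.

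Receptors of these and of other chemokines were also higher in tumors. Ccr2, the receptor of Ccl2, was at 25.3, 87.7, 7.41, 15.5, 31.3 and 34.1 CPM in tumors 1 to 6 and at 0 counts in clones, at least 61.8-fold higher. Cx3cr1 had 1189 counts in tumors and 2 in clones, and Cxcr4 had 194 and 1. Ccr1 was higher by 6.05 (SE 1.03, edgeR adjusted p = 0.00157) and the atypical receptor Cxcr7 by 4.14 (SE 0.84, edgeR adjusted p = 0.00389). Stromal Cxcl12 and the Cxcr3 ligand Cxcl10, both at 0 counts in clones, were at least 147-fold and at least 48.6-fold higher, and Cxcl14, with 1 count in clones, was at 97.5 to 457 CPM in tumors. Macrophage markers summed to 1030 to 4451 CPM in tumors and 21.2 to 45.4 CPM in clones, with 6 of 10 at 0 in clones, and fibroblast markers to 9653 to 58224 against 0.447 to 22.7 CPM. Their part in these differences was not tested.

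**Figure D3:**
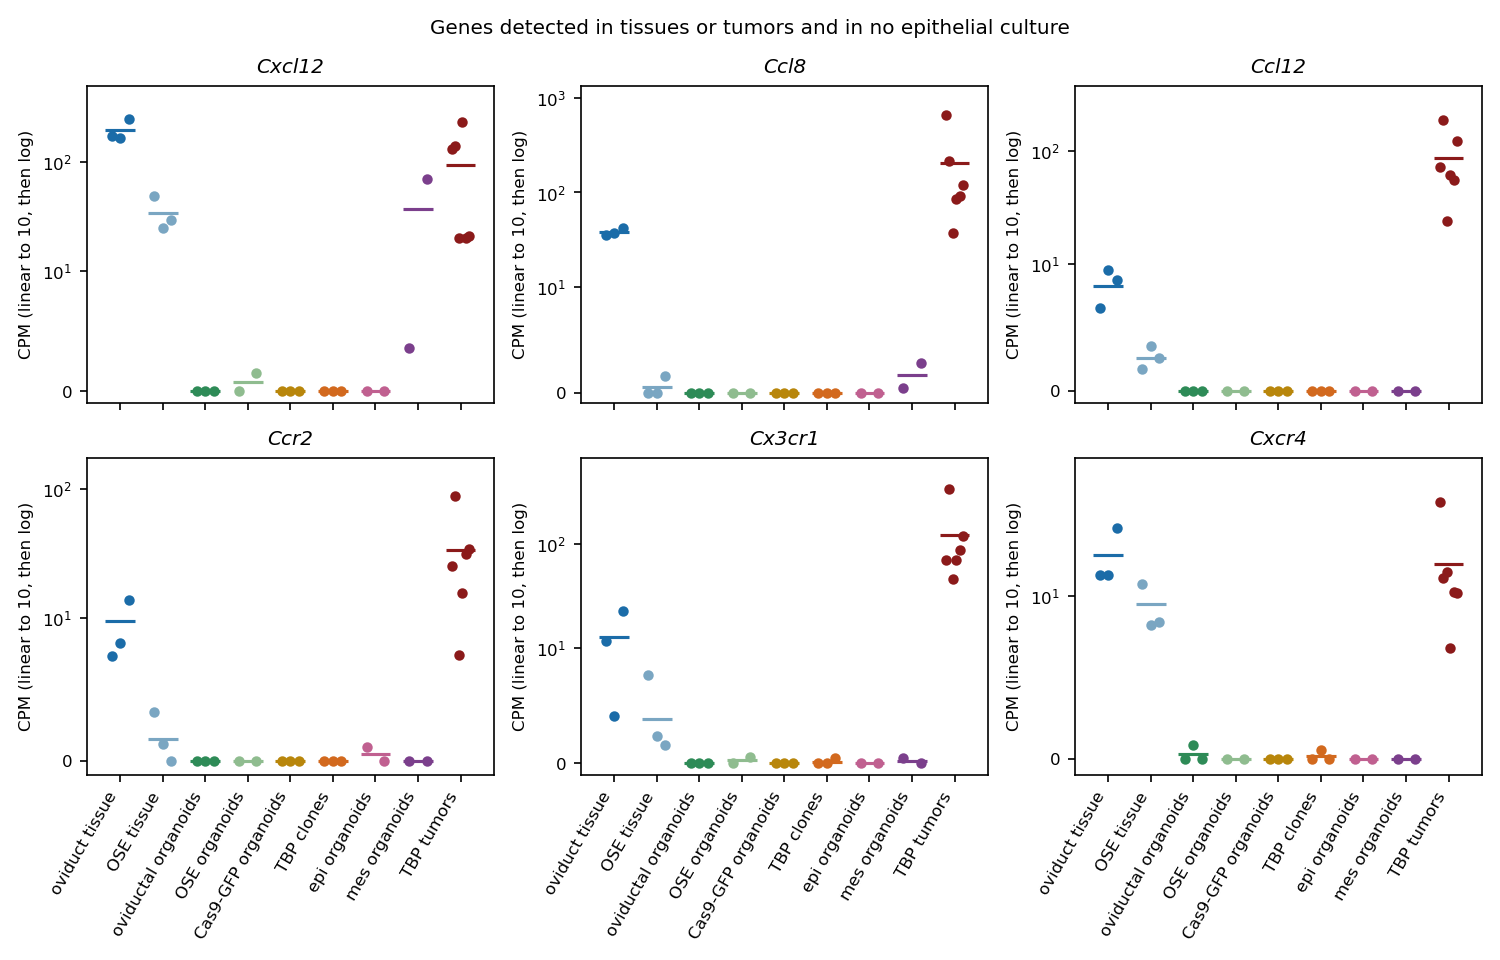
CPM of 6 genes detected in tissues or tumors and in no epithelial culture (vertical axis, linear to 10 and logarithmic above), with points for libraries and a bar for the mean of each of the 9 groups. Tumors are above 0 in every library for all 6 genes, and epithelial cultures are at or near 0.

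Several chemokines of epithelial cultures did not pass between tumors and clones. They were Cxcl17 (log2 fold change -0.46, SE 1.48), Cxcl16 (0.43, SE 0.35), Cx3cl1 (0.76, SE 0.70), Ccl28 (-0.94, SE 1.32), Ccl25 (-0.03, SE 0.86) and Cxcl5 (3.29, SE 1.99). Of the 18 genes detected in epithelial cultures, 7 were among the 17 called higher, namely Ccl2, Ccl6, Ccl9, Cxcl1, Cxcl10, Cxcl14 and Cxcr7. Cxcl2 and Cxcl3 had log2 fold changes of 3.15 (SE 1.17) and 4.48 (SE 1.71), with edgeR adjusted p = 0.0596 and 0.0664. Within the 6 tumors Cxcl17 ran from 0 to 237 CPM, Ccl28 from 0 to 22.0 CPM and Cxcl5 from 1.61 to 2905 CPM.

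Against the 4 tumor-derived organoid cultures, 11 of 27 genes tested were higher in tumors and 1 was lower, against 15.1% and 12.3% of all 10605 genes tested. This comparison uses the same 6 tumor libraries as the preceding one. The median log2 fold change was 1.69 for these 27 genes, also with genes at 0 set to their bound, and 0.02 for all genes tested. Here too, genes that passed the filter through the tumors alone had to differ, and 5 of the 27 had 0 counts in 1 group. Among the 11 were Ccl4, Ccl6, Ccl8, Ccl9, Ccl12, Ccr1, Ccr2, Cx3cr1, Cxcr4 and Cxcl10. With 0 counts in the organoids, Ccl6 was at least 315-fold, Ccl12 at least 209-fold, Cxcr4 at least 47.6-fold and Ccl4 at least 45.4-fold higher. Ccl8 was higher by 7.82 (SE 1.23), Ccr1 by 6.06 (SE 0.77), Ccl9 by 4.41 (SE 0.77) and Cxcl10 by 2.82 (SE 0.63) on the log2 scale, with edgeR adjusted p = 0.00124, 3.90e-04, 0.00215 and 0.00829. Cx3cr1 had 1 count in organoids and 1189 in tumors, and Ccr2 had 2 and 337. All 11 had every tumor above every organoid culture. Macrophage markers summed to 4.71 to 81.1 CPM in these organoids against 1030 to 4451 CPM in tumors, and their part was not tested.

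Among the genes not called between tumors and tumor-derived organoids were 4 with high levels in a mes culture. These were Ccl2 (log2 fold change 0.85, SE 1.22), Ccl7 (0.75, SE 1.25), Cxcl12 (2.33, SE 1.38) and Cxcl14 (2.01, SE 1.15). All 4 were called higher in tumors in the fit of all 27 libraries, Ccl2 and Ccl7 without T1-mes, and Cxcl12 without T3-mes. Cxcl1 was the lower gene, at 7.74 to 63.7 CPM in tumors and 222, 42.6, 81.5 and 28.0 CPM in T1-mes, T2-epi, T3-mes and T4-epi (log2 fold change -1.99, SE 0.67, edgeR adjusted p = 0.0476). The groups overlapped, and the call was lost without tumors 1, 2, 3, 5 or 6, T1-mes or T3-mes and with no filter on low counts (edgeR adjusted p up to 0.216).

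**Figure D4:**
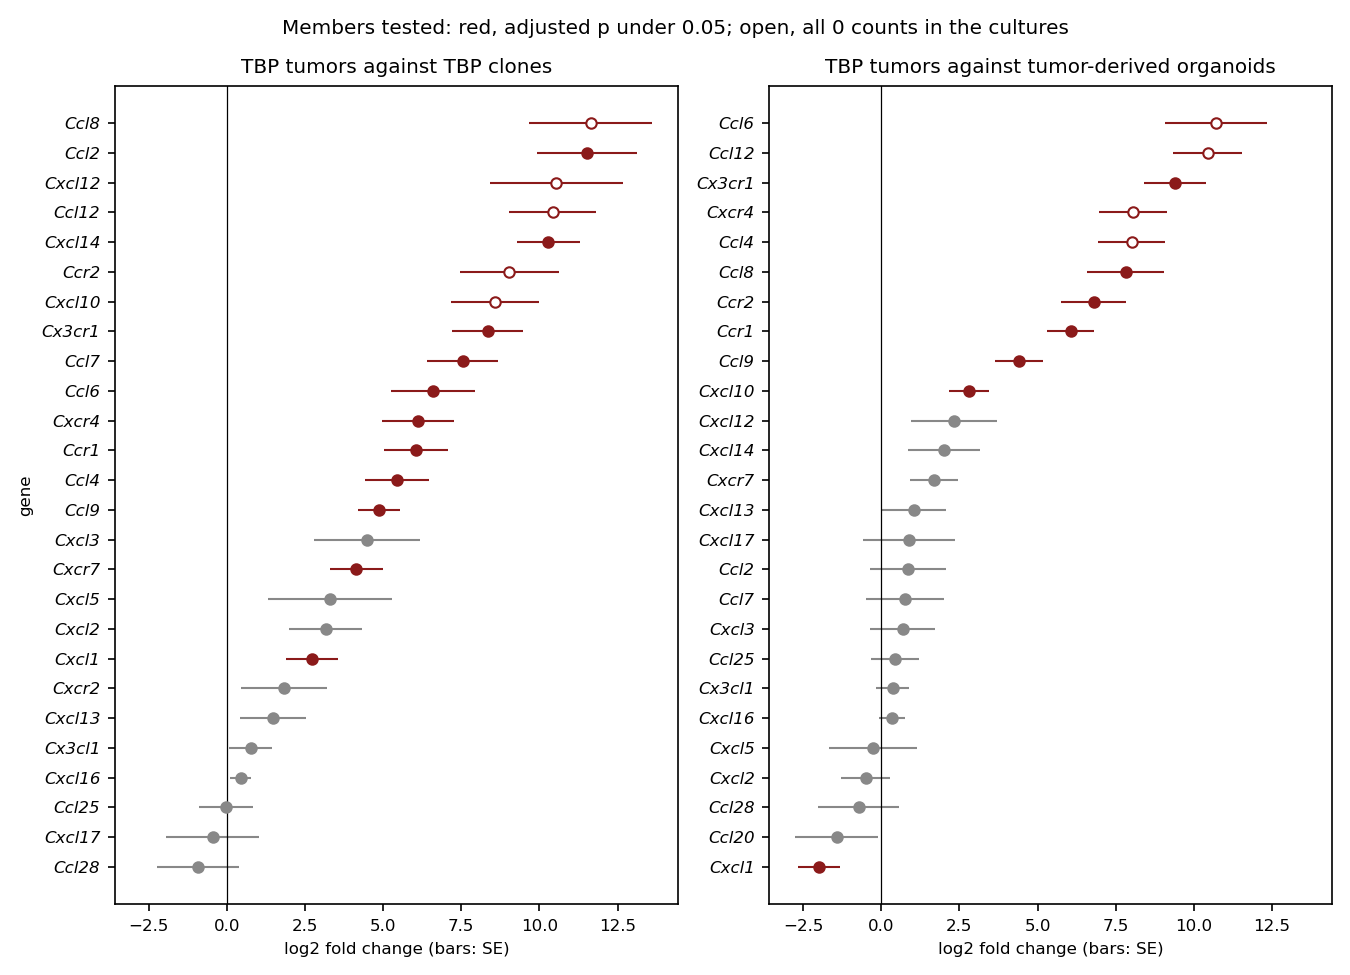
Log2 fold change of 26 tested genes between TBP tumors and TBP clones (left) and between TBP tumors and tumor-derived organoids (right), with bars for the SE. Red marks an edgeR adjusted p under 0.05 and open circles mark genes with 0 counts in the cultures, whose fitted value is no bound; 16 genes are red on the left and 11 on the right.

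The mes cultures were set against the epi cultures (2 libraries of each kind), and none of 15 genes tested passed by edgeR, against 1.003% of all 9775 genes higher in mes and 0.123% lower. An unadjusted p under 0.05 was reached by 10 of the 15, against 14.1% of all genes tested. Cxcl14 was at 70.4 CPM in T1-mes and 215 CPM in T3-mes, against 0 counts in T2-epi and 3.80 CPM in T4-epi (log2 fold change 6.22, SE 1.17, edgeR adjusted p = 0.0808). Ccl2 was at 1403 and 128 CPM in mes and 24.1 and 8.54 CPM in epi organoids (5.53, SE 1.26, edgeR adjusted p = 0.119). Ccl7 was at 183 and 5.18 CPM against 0.926 CPM and 0 counts, and Cxcl12 at 3.59 and 70.2 CPM against 0 counts. T1-mes thus held most Ccl2 and Ccl7, and T3-mes most Cxcl12 and Cxcl14. With a block that pairs T1-mes with T2-epi, grown from adjacent tumors, and T3-mes with T4-epi, for which no common origin is stated, 3 genes were called, all higher in mes: Ccl2, Ccl7 and Cxcl14. DESeq2 called 2 (Ccl2 and Cxcl1). Without T1-mes 10 genes were called, 4 higher (Ccl2, Cxcl3, Cxcl12 and Cxcl14) and 6 lower (Ccl20, Ccl28, Cxcl5, Cxcl13, Cxcl16 and Cxcl17), and without T3-mes 4 were called, all higher (Ccl2, Ccl7, Cxcl1 and Cxcl14). Epithelial markers summed to 372 CPM in T3-mes and 3675 to 5410 CPM in the other 3 cultures, and fibroblast markers to 3077 and 7332 CPM in mes and 30.6 and 99.6 CPM in epi organoids. Their part was not tested.

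The 6 tumors fell apart in Cxcl17, Ccl28 and Ccl20, which are some of the 18 genes detected in epithelial cultures. Cxcl17 was at 122 and 237 CPM in tumors 1 and 3 and at 0.877, 4.83, 0 and 1.83 CPM in tumors 2, 4, 5 and 6. Ccl28 was at 22.0 and 21.6 CPM in tumors 1 and 3 and at most 0.966 CPM in the others, and Ccl20 was at 38.0 and 46.1 CPM and at most 0.609 CPM. Epithelial markers summed to 2558 and 3297 CPM in tumors 1 and 3 and 198 to 479 CPM in the others, so the same tumors were high in both. Over all 6 tumors the order matched that of the epithelial markers in 11 (Cxcl17), 8 (Ccl28) and 12 (Ccl20) of 15 pairs, ties not counting as matches. Cxcl2, Cxcl5 and Cxcr2 also had their 2 highest levels in tumors 1 and 3, and the other genes of the 18 did not. Cxcl16 was at 41.9 to 104 CPM in all 6, Cxcl13 was highest in tumor 2 (168 CPM) and Ccl25 in tumor 5 (14.2 CPM).

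Cxcl5 was at 1360, 61.4, 2905, 259, 1.61 and 13.4 CPM in tumors 1 to 6. Neutrophil markers (S100a8, S100a9, Csf3r, Retnlg and Mpo) summed to 825, 42.1, 1446, 444, 4.84 and 31.7 CPM in the same tumors. The tumors had the same order by both measures, in 15 of 15 pairs of tumors, against 10 of 15 pairs for Cxcl5 and the epithelial markers and 10 of 15 for the neutrophil and the epithelial markers. The sum rests largely on S100a8 and S100a9 where it is high (600 and 780 CPM in tumor 3). Csf3r alone was at 59.5, 2.63, 20.2, 2.90, 2.90 and 7.92 CPM, a different order. Cxcr2, the receptor of Cxcl5 on neutrophils, was at 67.2, 1.75, 36.4, 4.83, 1.94 and 3.05 CPM. It shared the order of the neutrophil sum in 12 of 15 pairs. The relation of Cxcl5 to the neutrophil sum was noticed after the values were seen, over 6 tumors grown in the same host strain. It is given as a description. The labels do not say which clone each tumor came from, and the part of neutrophils in the levels of Cxcl5 was not tested. In the tumor-derived organoids, where Cxcl5 was at 226 to 1416 CPM, neutrophil markers summed to at most 5.69 CPM.

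**Figure D5:**
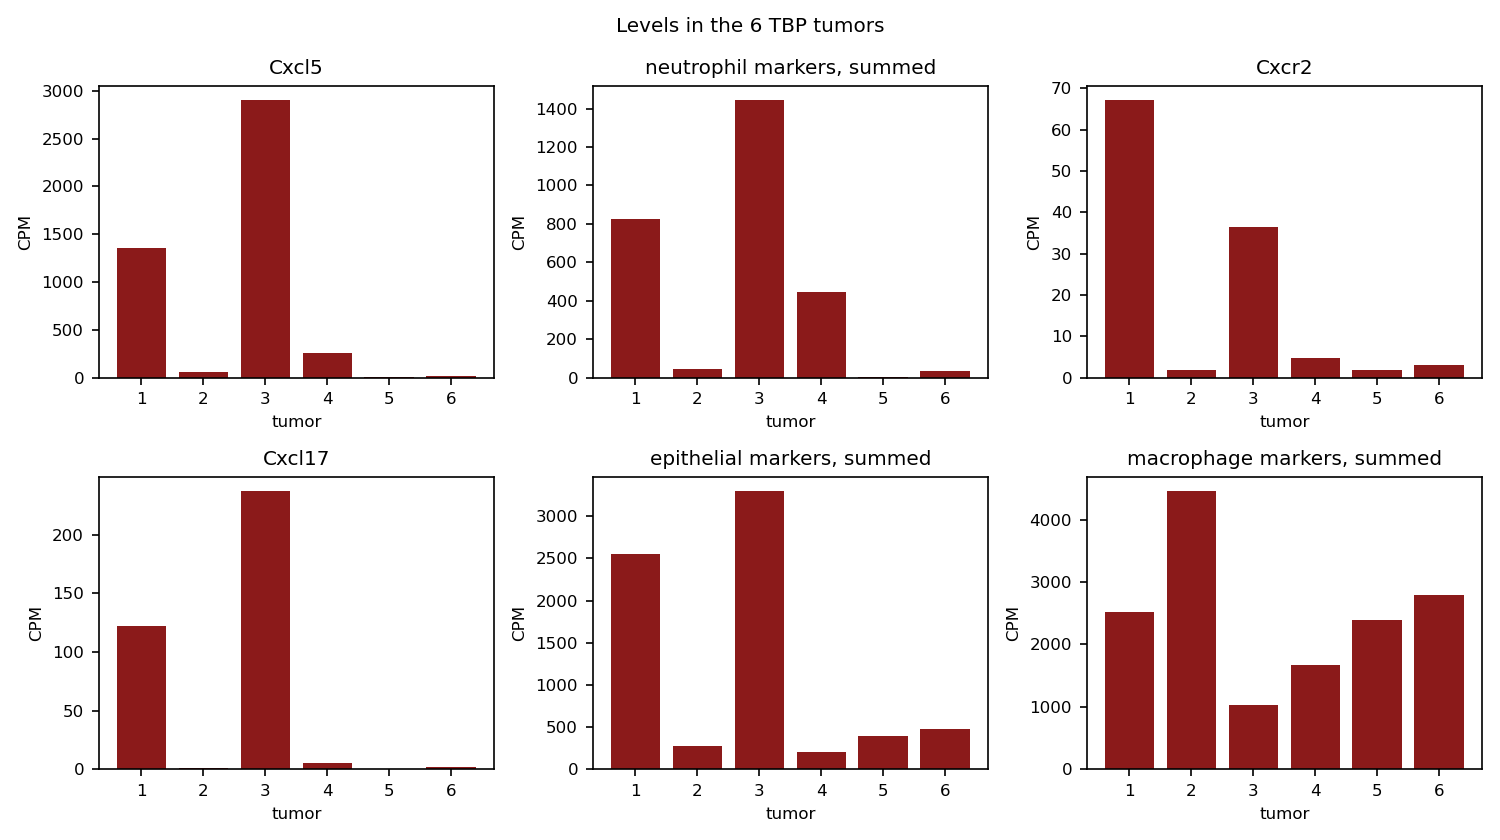
Bars give CPM in each of the 6 TBP tumors for Cxcl5, Cxcr2 and Cxcl17 and for the summed neutrophil, epithelial and macrophage markers, each on its own linear axis from 0. Cxcl5 and the summed neutrophil markers put the tumors in the same order, with tumor 3 highest (2905 and 1446 CPM) and tumor 5 lowest.

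Genes of the wider pathway outside the symbol rule were taken from a list of 39 genes, of which 34 are in the table. Between oviductal organoids and oviduct tissue 6 of 19 tested were higher and 7 lower, against 18.7% and 24.2% of all genes tested. Between OSE organoids and OSE tissue 2 of 20 were higher and 4 lower, against 14.5% and 18.6%. Mif, a cytokine that binds Cxcr2, Cxcr4 and Cd74, was higher in organoids of both origins (log2 fold change 2.17, SE 0.18, and 1.32, SE 0.25), and the platelet and macrophage chemokine Pf4 was lower (-6.36, SE 0.70, and -4.07, SE 0.92). Nfkbia, an inhibitor and target of NF-kappaB, was higher in oviductal organoids by 1.37 (SE 0.18), and Ppbp, another chemokine with the ELR motif, was at 169, 21.4 and 35.9 CPM in oviductal organoids and at most 1.37 CPM in oviduct tissue. Between the tissues 7 of 18 were higher in oviduct and 6 in OSE, against 26.9% and 24.3%, among the latter Nfkbiz (log2 fold change -3.03, SE 0.38), a co-regulator of NF-kappaB targets. Between tumors and clones 10 of 25 were higher and 3 lower, against 20.1% and 11.7%, and between tumors and tumor-derived organoids 9 of 26 were higher and 4 lower, against 15.1% and 12.3%. Il1b, a cytokine of myeloid cells, was at 0 counts in clones and tumor-derived organoids and at 390, 12.3, 101, 20.3, 16.4 and 14.0 CPM in tumors 1 to 6, so that tumor 1 holds most of it, whereas Il1a was lower in tumors than in either (log2 fold change -3.02, SE 0.61, and -2.97, SE 0.75). Mif was lower in tumors by both comparisons (-2.83, SE 0.31, and -2.17, SE 0.27). None passed between oviductal and OSE organoids (of 16 tested), clones and Cas9-GFP organoids (of 16) or mes and epi organoids (of 21).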

How the data were processed

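The authors sequenced CEL-Seq2 libraries of 27 samples, aligned the reads with BWA to GRCm38, kept unique reads on the right strand and deposited raw counts per gene (18306 rows) without collapsing molecular identifiers, so copies of a molecule count as separate reads and all intervals and floors cover counting error only. A spike-in row with 1 count was dropped, and every column was used. The submitters' processing notes name DESeq2 1.18.0. Depth per sample runs from 82239 to 4531767 counts. No replicate pair (33 pairs) agreed within sampling noise, the lowest chi-square per gene being 2.53.

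Samples were grouped by the labels. Each comparison was fitted across all genes that passed filterByExpr in the libraries compared, using edgeR 4.0.16 under R 4.3.3 and its quasi-likelihood F-test (TMM scaling, SE as the log2 fold change over the square root of F) and Benjamini-Hochberg adjustment over all genes tested, called under 0.05. Alternatives were DESeq2 1.42.0, RLE scaling, no filter, a fit of all 27 libraries, a replicate block and leaving out each library. The fitting code was tested on simulated data. Detection needed more than 3 counts in at least 2 libraries of a group. A group at 0 was set to 3 counts over the group for folds, and ratios against 1 to 3 counts carry exact 95% counting intervals. Named genes are those detected in epithelial cultures, those called (up to 10 per comparison with the largest change, all called genes being listed) and the 5 highest by mean CPM in each group. Members, gene lists and motifs were chosen with earlier results of these data known. Promoter sequence is from RefSeq, and positions from GENCODE vM21. Plots were made in Python 3.11.15 (matplotlib 3.10.9). The values of 1 member are counted in the totals but not reported here.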

Additional observations from a re-analysis of the deposited data

Results flagged for a closer look

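Of 33 genes detected in the 6 TBP tumors, 11 had a tumor standing apart from the other 5. Its gap to the next tumor exceeded Dixon's 95% critical share of the range. That share is set for normally distributed values, and no chance rate was worked out for CPM. The count of 11 is therefore a description. Tumor 1 stood apart in Ccl4 (41.9 CPM, next 14.0), Ccl6 (317 CPM, next 126), Ccl8 (662 CPM, next 215) and Cxcr4 (43.5 CPM, next 14.5). Tumor 2 stood apart in Ccr2 (87.7 CPM, next 34.1), Cx3cr1 (339 CPM, next 119) and Cxcl13 (168 CPM, next 58.4). It also had the highest macrophage marker sum of the 6 tumors (4451 CPM). Tumor 4 stood apart in Cxcl1 (63.7 CPM, next 28.0) and Cxcl3 (132 CPM, next 36.7), and tumor 6 in Ccl2 (2076 CPM, next 813) and Cxcl9 (8.53 CPM, next 2.26). All 11 were the highest tumor for that gene.

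The change from tissue to organoid differed between oviduct and OSE by the interaction term for 5 genes, by 5.89 for Cxcl1, 5.44 for Cxcl2, -7.70 for Cxcl17, -5.90 for Cxcl12 and -1.85 for Cx3cl1 (log2, oviduct minus OSE).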

How the results depend on the processing

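Of 256 results for single called genes under alternatives that kept all libraries, 241 kept their call, 15 lost it and 0 reversed, and with 1 library left out 430 of 470 kept it, 40 lost it and 0 reversed. Counts of called genes moved by over 1.5 times as follows. For oviductal organoids against tissue (7) they were 11 by DESeq2, 18 with no filter and 11 in the fit of all 27 libraries. For the tissues (9) the count was 17 with no filter, and for clones against Cas9-GFP organoids (1) it was 4 with no filter and 0 in the fit of all 27 libraries. For tumors against tumor-derived organoids (12) it was 20 in the fit of all 27 libraries, and for mes against epi organoids (0) 2 by DESeq2, 2 with no filter and 5 in the fit of all 27 libraries. More genes are tested with no filter and in the joint fit, and beyond that the cause was not tested.

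With 1 library left out the counts were 10 to 15 (oviductal organoids against tissue: 15, 14 and 12 without oviductal organoids 1, 2 and 3), 6 to 13 (OSE organoids against tissue), 9 to 9 (tissues), 0 to 5 (oviductal against OSE organoids), 0 to 2 (clones), 16 to 19 (tumors against clones), 11 to 13 (tumors against tumor-derived organoids), 0 to 10 (mes against epi) and 3 to 6 (interaction). Where a group was left with 1 library, its spread was taken to be that of the other group. Detection above 10 counts gave 10 genes in oviduct tissue and 9 in OSE tissue in place of 19 and 15, and detection in all libraries gave 3 in TBP clones in place of 9.

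Samples with the same replicate number showed little common deviation (correlations of -0.04 to 0.09). T1-mes and T2-epi, grown from adjacent tumors, reached only 0.08. With so few libraries in a group this check cannot exclude that the numbers pair samples. With the replicate block 4 genes were called between OSE organoids and OSE tissue in place of 8, and 3 between mes and epi organoids in place of 0. In the other comparisons the block left 7 (oviductal organoids against tissue), 9 (tissues), 0 (oviductal against OSE organoids) and 1 (clones).

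The median of all genes tested lay at 0.16 for tumors against clones (0.29 with RLE and 0.15 with DESeq2), and DESeq2 moved it to -0.21, -0.24 and 0.21 for oviductal organoids and OSE organoids against their tissues and tumors against tumor-derived organoids. Among all genes called, the share higher in mes was 89.1% by edgeR and 78.5% by DESeq2, and the share higher in oviductal over OSE organoids 100% and 66.3%. TBP clone 1, with a floor of 34.1 CPM, limits every statement on absence in the clones.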
